A study of Homo sapiens with 15 samples.

Results

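Decay of messenger RNA from its ends was followed here through 37 genes of the human 5-prime and 3-prime decay machinery in cells with raised or lowered ZC3H7A and ZC3H7B. The genes were taken by name from the deposited table and comprise 2 decapping enzymes, 9 decapping activators, 8 LSM proteins, 2 XRN exonucleases, 12 exosome subunits and 4 genes of the SKI complex and the MTR4 helicase. The rule used names and no measured value, but it was set with earlier results of these data known. All 37 were among the 55773 rows of the table. Older names of the table were kept, so that SKIV2L2 is the gene now called MTREX and TTC37 and SKIV2L are subunits of SKI. LSM8 was read from the row NAA38, an older name of LSM8 in RefSeq.

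The samples were RNA-seq libraries from HEK293-derived cells, an established human embryonic kidney line, in 5 groups of 3. The overexpression experiment used Flp-In T-REx 293 cells with a doxycycline-inducible transgene for Flag/HA-ZC3H7A, for Flag/HA-ZC3H7B or for a Flag/HA-control, and all 3 groups received doxycycline at 1 µg/mL for 24 h. In the depletion experiment, the group labelled ZC3H7A/B-DD (DD below) joined a ZC3H7A knockout with an shRNA against ZC3H7B, and the group labelled Parental was wild type with the control shRNA shCTR. Both of these groups passed through puromycin at 5 µg/mL and were released from it 2 passages before collection. The sources used here give neither the number of lines behind each transgene nor the number of clones behind DD. They also do not say whether the 3 DD and 3 Parental samples were separate cultures. The p-values therefore measure the spread between samples within groups, pooled over the groups of an experiment. The series title names codon-dependent regulation of translation and stability by both proteins, which are CCCH zinc-finger RNA-binding proteins.

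As background, most mRNAs are degraded after their poly(A) tail has been shortened. In the 5-prime route the LSM1-7 ring and PATL1 bind the shortened tail, DCP2 removes the cap with the help of DCP1 and EDC proteins, and XRN1 digests the body of the transcript. In the 3-prime route the exosome, fed by the SKI complex in the cytoplasm and by MTR4 in the nucleus, digests the RNA from its tail end, and DCPS then clears the cap that remains. XRN2 and the LSM2-8 ring are the nuclear counterparts of XRN1 and LSM1-7.

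Each overexpression library held 45.5 to 57.6 M reads and each depletion library 12.2 to 15.5 M reads. The experiments used different library protocols, so values were compared only within each of them. ZC3H7A was measured at 10546, 10131 and 12898 normalized reads with its transgene, against 3180, 3374 and 3223 in the control, and ZC3H7B at 28082, 26712 and 26632 with its transgene, against 5951, 5818 and 6044 in the control. In DD, ZC3H7B was at 999.8, 1168 and 1083, against 5948, 6484 and 6958 in Parental. The knocked-out ZC3H7A was not lower in DD, with 1640, 1561 and 1771 against 1585, 1528 and 1684 in Parental, so its RNA level did not check that label. The control libraries differed least among themselves (biological coefficient of variation 2.02%) and the Parental libraries most (10.3%), with 8.92% for ZC3H7A, 4.32% for ZC3H7B and 4.78% for DD. ZC3H7A library 3 and Parental library 3 stood farthest from the other libraries of their groups.

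The coding sequences of the 37 genes differ widely in the last base of their codons, and several results below are set beside that property. Codons with A or T in last place made up 8.49% of EXOSC6, the lowest, 51.8% at the median of the 37 genes and 68% of EXOSC8, the highest, against a median of 39.5% over all genes with a coding sequence. The first 30 codons of 6 genes are printed here from the GENCODE 29 annotation of GRCh38, 5-prime to 3-prime on the coding strand, with the last base of a codon in capitals where it is A or T. XRN1 and XRN2 are shown because they moved in opposite directions in both overexpressions, EXOSC8 against EXOSC5 and EXOSC6 because they belong to the same exosome ring and have unlike codons, and LSM4 because it rose most among the LSM genes.
XRN1: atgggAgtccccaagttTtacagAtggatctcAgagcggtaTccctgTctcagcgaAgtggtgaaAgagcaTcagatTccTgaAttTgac
XRN2: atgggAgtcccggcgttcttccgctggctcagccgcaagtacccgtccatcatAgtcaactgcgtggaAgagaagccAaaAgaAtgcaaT
EXOSC8: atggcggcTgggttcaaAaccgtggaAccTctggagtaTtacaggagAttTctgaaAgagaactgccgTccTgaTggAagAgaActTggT
EXOSC5: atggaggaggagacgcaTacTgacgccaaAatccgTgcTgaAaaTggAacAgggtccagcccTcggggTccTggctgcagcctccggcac
EXOSC6: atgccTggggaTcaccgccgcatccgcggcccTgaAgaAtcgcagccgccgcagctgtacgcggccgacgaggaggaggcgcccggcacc
LSM4: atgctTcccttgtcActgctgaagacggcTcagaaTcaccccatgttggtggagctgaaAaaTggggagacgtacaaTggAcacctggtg
The stretches lie at chr3:142432879-142447944, minus strand for XRN1 (13 of 30 codons end in A or T), chr20:21303399-21326293, plus strand for XRN2 (7 of 30) and chr13:37000806-37002523, plus strand for EXOSC8 (16 of 30). They lie at chr19:41397239-41397328, minus strand for EXOSC5 (12 of 30), chr16:70251811-70251900, minus strand for EXOSC6 (5 of 30) and chr19:18312658-18323020, minus strand for LSM4 (8 of 30). The spans of XRN1, XRN2, EXOSC8 and LSM4 include introns that are not printed. These opening codons are not a sample of the whole: over its 235 codons EXOSC5 has 26.1% ending in A or T, and XRN2 has 62.7% over its 950.

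Levels between genes are given as normalized reads per kilobase of annotated exon in the control group. This length joins the exons of all annotated transcripts of a gene, and the order of the genes depends on it. On this scale LSM14A (2231) and LSM4 (2031) were the highest, and DCPS (97.7) and PNRC2 (104) the lowest. XRN2, the nuclear exonuclease, stood at 1214 per kilobase and XRN1, its cytoplasmic counterpart, at 143. Among the exosome catalytic subunits EXOSC10 stood at 674, DIS3L at 507 and DIS3 at 314. Of the subunits of the same ring, EXOSC5 reached 1123 per kilobase and EXOSC7 191. Their joined exons measure 1488 and 4442 bases, while the transcripts used for their codons measure 1118 and 1055. Part of this gap therefore comes from the length used, and the control means before division were 1672 and 848 normalized reads. All 37 genes passed the filter on low values in both experiments, and the fewest reads for any of them in any library was 114, for EXOSC7 in DD library 2.

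Both overexpressions moved most of the decay machinery, and moved it in both directions. With ZC3H7A, 21 of 37 genes rose, 11 fell and 5 did not pass the test (limma, Benjamini-Hochberg adjusted p under 0.05 over 17673 genes). With ZC3H7B, 20 rose, 11 fell and 6 did not pass. These counts stand against a wide background: 75.9% of all tested genes were called with ZC3H7A (34.7% higher, 41.2% lower) and 69.6% with ZC3H7B (32% higher, 37.6% lower). Upper-quartile scaling shifted the median log2 fold change of these genes by 0.12 with ZC3H7A and by 0.13 with ZC3H7B. Under it, and over the 19519 genes that then passed the filter, more genes were called higher than lower in both: 7355 higher and 6354 lower with ZC3H7A, in place of 6135 and 7277, and 7165 higher and 5389 lower with ZC3H7B, in place of 5648 and 6647. At an absolute log2 fold change of at least 0.5, 15 of the 37 genes were called with ZC3H7A (43.6% of all genes) and 11 with ZC3H7B (34.5% of all genes). The libraries did not overlap for 34 of the 37 genes with ZC3H7A (77.9% of all genes) and for 35 with ZC3H7B (77.1% of all genes). The median log2 fold change of the 37 genes was 0.11 with ZC3H7A, where that of all genes was -0.07, and 0.14 with ZC3H7B, where that of all genes was -0.06. In these bulk libraries a lower level per cell and fewer cells expressing a gene cannot be told apart.

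The 2 overexpressions share their 3 control libraries, so their values are given side by side and their likeness is not tested. In both, 19 genes rose and 9 fell, 1 gene (EXOSC10) was called in opposite directions, and 3 genes (LSM14A, LSM3 and LSM5) were called in neither. Over the 16165 genes tested in both experiments of the study, 28.4% rose in both overexpressions and 31.0% fell in both.

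**Figure D1:**
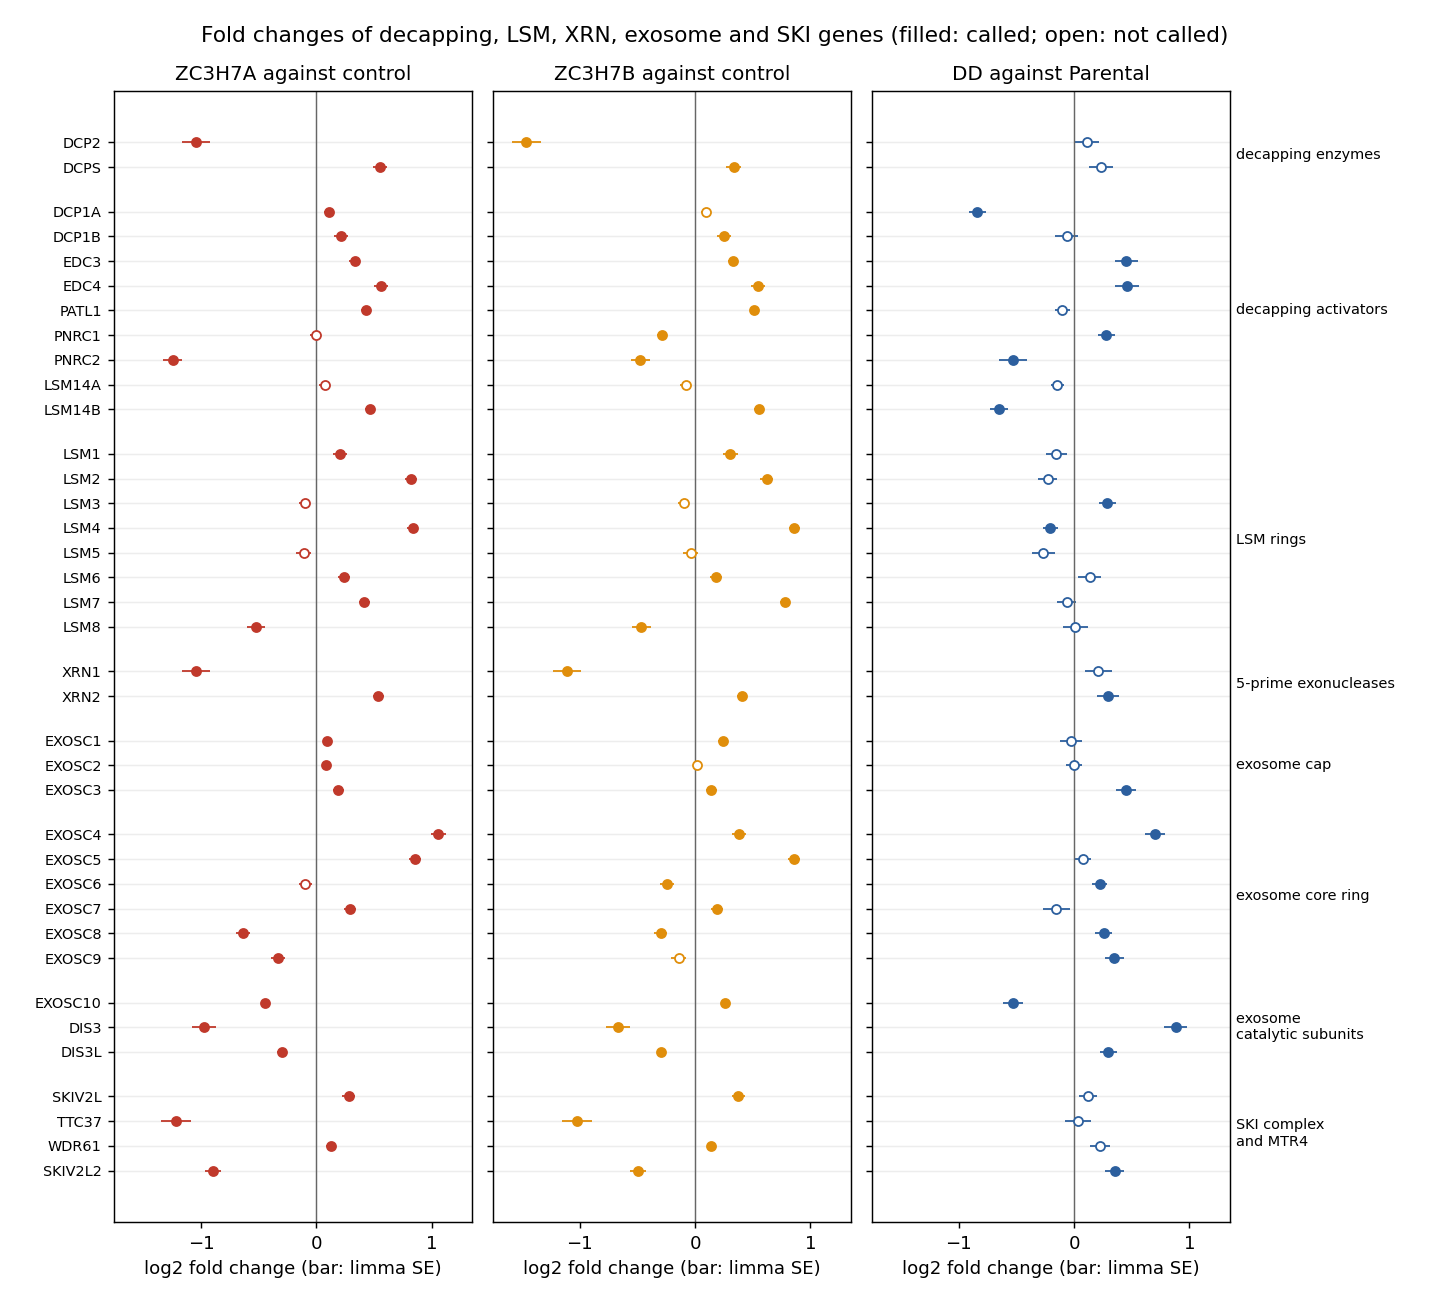
Log2 fold changes (x axis) with limma standard errors of the 37 genes (y axis, grouped by role) for ZC3H7A against control, ZC3H7B against control and DD against Parental, 3 libraries a group; filled points passed the test. DCP2, XRN1 and TTC37 lie near or beyond -1 in both overexpressions and between 0.032 and 0.21 in DD, and LSM4 and EXOSC5 lie between 0.84 and 0.86 in both overexpressions.

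The decapping enzymes moved apart. DCP2, which hydrolyses the cap, had 2308, 2072 and 3102 normalized reads with ZC3H7A, 1613, 1831 and 2083 with ZC3H7B and 4957, 5119.5 and 5101 in the control. Every library of both overexpressions lay below every control library. DCP2 fell in each (log2 fold change -1.04 with SE 0.124, limma adjusted p = 8.82e-06 for ZC3H7A; log2 fold change -1.46 with SE 0.124, limma adjusted p = 7.7e-07 for ZC3H7B), and its change with ZC3H7B was the largest of any of the 37 genes in these comparisons. DCPS, the scavenger enzyme that cleaves the cap left by the exosome, had 583, 572 and 540.1 with ZC3H7A, 519, 478 and 459 with ZC3H7B and 387, 397 and 370.2 in the control. It rose in both (log2 fold changes 0.55 and 0.33), again without overlap.

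Among the 9 decapping activators, 6 rose and 1 fell with ZC3H7A, and 5 rose and 2 fell with ZC3H7B. In each, 77.8% were called, beside 75.9% of all tested genes with ZC3H7A and 69.6% with ZC3H7B. The scaffold EDC4 (0.56 with ZC3H7A and 0.55 with ZC3H7B on the log2 scale), PATL1, which joins the LSM ring to the decapping complex (0.43 and 0.51), and EDC3 (0.33 and 0.33) rose in both. Of the DCP1 paralogs that activate DCP2, DCP1B rose in both (0.21 and 0.25). DCP1A rose with ZC3H7A by 0.11, a call lost without 1 library or another, and had 0.09 with ZC3H7B, where it did not pass the test. No activator other than PNRC2 and, with ZC3H7B, PNRC1 was called lower. EDC3 shares 13.7% of its exon bases with CLK3 on the other strand, and EDC4 shares 21.2% with a gene on its own strand.

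PNRC2, which binds DCP1A and the nonsense-mediated decay factor UPF1, was the exception among the activators. It had 115, 114 and 139 normalized reads with ZC3H7A, 201, 209 and 215 with ZC3H7B and 295, 282 and 294 in the control. The 3 groups stood in separate ranges, lowest with ZC3H7A. PNRC2 fell in both (log2 fold change -1.24 with SE 0.0818, limma adjusted p = 6.5e-08 for ZC3H7A; log2 fold change -0.48 with SE 0.0818, limma adjusted p = 0.000236 for ZC3H7B). The fall with ZC3H7B turned to a rise when the trend with transcript A+T content was removed (0.26, limma adjusted p = 0.0022). Its paralog PNRC1 did not pass the test with ZC3H7A (-0.0036) and fell with ZC3H7B (-0.29).

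LSM14A and LSM14B, paralogs that repress translation together with DDX6, also differed before the trend with transcript A+T content was removed. LSM14B had 2536, 2654 and 2477 with ZC3H7A, 2626, 2734 and 2791 with ZC3H7B and 1869, 1887 and 1787 in the control, and rose in both without overlap (0.47, limma adjusted p = 1.38e-06 and 0.56, limma adjusted p = 5.09e-07 on the log2 scale). LSM14A had log2 fold changes of 0.07 and -0.08 and passed in neither. Once the A+T trend was removed, LSM14A rose in both (0.57, limma adjusted p = 2.51e-10 for ZC3H7A and 0.35, limma adjusted p = 1.35e-07 for ZC3H7B). LSM14B then rose by 0.22 and 0.36, so the contrast between the paralogs depended on that trend.

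The LSM proteins that form the heptameric rings did not change as a unit before the trend with transcript A+T content was removed. In each overexpression 5 of 8 rose, 1 fell and 2 did not pass. The 75% called in each stand beside 75.9% of all tested genes with ZC3H7A and 69.6% with ZC3H7B. LSM4 had 11443, 11199 and 10328 normalized reads with ZC3H7A, 11514, 11005 and 10968 with ZC3H7B and 5926, 6306 and 6227 in the control. The 6 overexpression libraries lay close together and far above the controls (log2 fold change 0.84 with SE 0.0457, limma adjusted p = 1.55e-08 for ZC3H7A; log2 fold change 0.86 with SE 0.0457, limma adjusted p = 2.45e-08 for ZC3H7B). LSM2 rose as well, with 2413, 2398 and 2176 with ZC3H7A, 2139.7, 2027 and 1909.9 with ZC3H7B and 1288, 1315 and 1346 in the control (log2 fold changes 0.82 and 0.62). LSM7 had 2824, 2772 and 2571 with ZC3H7A, 3502, 3564 and 3435 with ZC3H7B and 2033, 2005 and 2066 in the control. It rose in both and stood higher with ZC3H7B in every library (log2 fold changes 0.42 with ZC3H7A and 0.78 with ZC3H7B).

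LSM6 rose by less (0.24 and 0.18), and so did LSM1, the subunit that makes the ring cytoplasmic (0.21 and 0.31). LSM8, which takes the place of LSM1 in the nuclear ring that holds U6 RNA, fell: it had 1144, 1194 and 1451 with ZC3H7A, 1217, 1305 and 1404 with ZC3H7B and 1782, 1823 and 1815 in the control (log2 fold changes -0.52 and -0.47). The direction of LSM8 turned when the trend with transcript A+T content was removed (0.25, limma adjusted p = 1.78e-05 for ZC3H7A; 0.27, limma adjusted p = 8.26e-06 for ZC3H7B). LSM3 (-0.10 and -0.10) and LSM5 (-0.11 and -0.04) passed in neither, and under upper-quartile scaling the sign of both was positive. The subunits shared by the rings included both the largest rises and the genes with no call. Once the A+T trend was removed, LSM1, LSM2, LSM4, LSM5, LSM6, LSM7 and LSM8 were all called higher in both overexpressions. LSM3 was then called in neither (-0.05 and -0.08). LSM1 shares 38.5% of its exon bases with genes on the other strand, BAG4 among them, and the sources used here do not say whether reads were counted by strand.

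The XRN exonucleases moved in opposite directions. XRN1, which digests decapped mRNA, had 802, 686 and 1041 normalized reads with ZC3H7A, 723, 775 and 888 with ZC3H7B and 1727, 1727 and 1690.4 in the control. Every overexpression library lay below the control range, and XRN1 fell in both (log2 fold change -1.05 with SE 0.121, limma adjusted p = 7.03e-06 for ZC3H7A; log2 fold change -1.11 with SE 0.121, limma adjusted p = 5.8e-06 for ZC3H7B). XRN2, which degrades nuclear RNA and ends transcription behind the cleaved pre-mRNA, had 6288, 5680.4 and 6239.8 with ZC3H7A, 5413, 5668 and 5480.3 with ZC3H7B and 4195, 4125 and 4196 in the control. It rose in both, again without overlap (0.54, limma adjusted p = 4.11e-07 and 0.40, limma adjusted p = 6.5e-06 on the log2 scale), although 62.7% of its codons end in A or T.

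The 3 catalytic subunits of the exosome were called lower in both overexpressions, except EXOSC10 with ZC3H7B. Of all tested genes, 41.2% were called lower with ZC3H7A and 37.6% with ZC3H7B. DIS3, the processive nuclease at the base of the nuclear exosome, had 1695, 1452 and 2099 with ZC3H7A, 1944, 2139.5 and 2342 with ZC3H7B and 3380.3, 3442 and 3378 in the control. It fell in both (log2 fold change -0.98 with SE 0.106, limma adjusted p = 4.26e-06 for ZC3H7A; log2 fold change -0.67 with SE 0.106, limma adjusted p = 0.000125 for ZC3H7B). DIS3L, its cytoplasmic paralog, fell by less (-0.30 and -0.29). EXOSC10, the second nuclear nuclease, had 2981, 3059 and 2911 with ZC3H7A, 4947, 4802 and 4776 with ZC3H7B and 4051, 3996 and 4093 in the control. The control libraries lay between the others: EXOSC10 fell with ZC3H7A (-0.44, limma adjusted p = 5.25e-07) and rose with ZC3H7B (0.26, limma adjusted p = 5.95e-05). EXOSC10 shares 39.3% of its exon bases with opposite-strand genes and DIS3 shares 11.2%, so reads of those genes could be counted with them if strand was not used.

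Of the 6 ring subunits, which lack catalytic activity in human cells, 3 rose and 2 fell in each overexpression. The 83.3% called in each stand beside 75.9% of all tested genes with ZC3H7A and 69.6% with ZC3H7B. EXOSC4 had 1397, 1235 and 1232 normalized reads with ZC3H7A, 817, 819 and 769 with ZC3H7B and 606, 651 and 593 in the control. It rose with ZC3H7A (log2 fold change 1.06 with SE 0.0615, limma adjusted p = 2.37e-08) and by less with ZC3H7B (log2 fold change 0.38 with SE 0.0615, limma adjusted p = 0.000151). EXOSC4 shares 19.5% of its exon bases with a gene on the other strand. EXOSC5 had 3216, 3044 and 2852 with ZC3H7A, 3204, 3004 and 2887 with ZC3H7B and 1687, 1683 and 1645 in the control. It rose alike in both (log2 fold change 0.86 with SE 0.0528, limma adjusted p = 3.76e-08 for ZC3H7A; log2 fold change 0.86 with SE 0.0528, limma adjusted p = 6.69e-08 for ZC3H7B). EXOSC7, which shares 13.6% of its exon bases with CLEC3B on the same strand, rose in both (0.30 and 0.19).

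EXOSC8, in the same ring, had 1672, 1765 and 1984 with ZC3H7A, 2216, 2273 and 2336 with ZC3H7B and 2726, 2818 and 2849.7 in the control and fell in both (-0.63, limma adjusted p = 9.79e-07 and -0.30, limma adjusted p = 0.000598 on the log2 scale). EXOSC9 had 1427, 1479.8 and 1694 with ZC3H7A, 1666, 1749 and 1808 with ZC3H7B and 1845, 1965 and 1961 in the control. It fell with ZC3H7A (-0.33, limma adjusted p = 0.000443) and did not pass with ZC3H7B (-0.14, limma adjusted p = 0.059). EXOSC6 had -0.09 with ZC3H7A, without passing, and fell with ZC3H7B (-0.24) on the log2 scale. The cap subunits that thread RNA into the ring moved little. With ZC3H7A, EXOSC1, EXOSC2 and EXOSC3 rose by 0.10, 0.09 and 0.19, and with ZC3H7B EXOSC1 (0.24) and EXOSC3 (0.14) rose while EXOSC2 (0.018) did not pass. The ZC3H7A calls of EXOSC1 and EXOSC2 and the ZC3H7B call of EXOSC3 were lost without 1 library or another.

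Before the trend with transcript A+T content was removed, the scaffold of the SKI complex fell while its partners rose. TTC37, the scaffold, had 2616, 2258 and 3508 normalized reads with ZC3H7A, 2819, 3009 and 3624 with ZC3H7B and 6476, 6338 and 6274 in the control. All overexpression libraries lay under the control range (log2 fold change -1.21 with SE 0.13, limma adjusted p = 3.75e-06 for ZC3H7A; log2 fold change -1.02 with SE 0.13, limma adjusted p = 2.1e-05 for ZC3H7B). The helicase SKIV2L (0.28 and 0.37) and WDR61, a subunit shared with the PAF1 transcription complex (0.13 and 0.14), rose in both. The WDR61 call with ZC3H7A was lost without 1 library or another. Once the A+T trend was removed, SKIV2L was not called with ZC3H7A (-0.021, limma adjusted p = 0.568) and still rose with ZC3H7B (0.15). SKIV2L2, the MTR4 helicase that feeds the nuclear exosome, had 1622, 1552 and 1899 with ZC3H7A, 2090.2, 2267 and 2322 with ZC3H7B and 3137, 3142 and 3137 in the control. It lay lowest with ZC3H7A, where it fell (log2 fold change -0.90 with SE 0.0679, limma adjusted p = 2.03e-07). It also fell with ZC3H7B (log2 fold change -0.50 with SE 0.0679, limma adjusted p = 3.78e-05). Once the A+T trend was removed, SKIV2L2 still fell with ZC3H7A (-0.32) and was not called with ZC3H7B (0.022, limma adjusted p = 0.519).

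**Figure D2:**
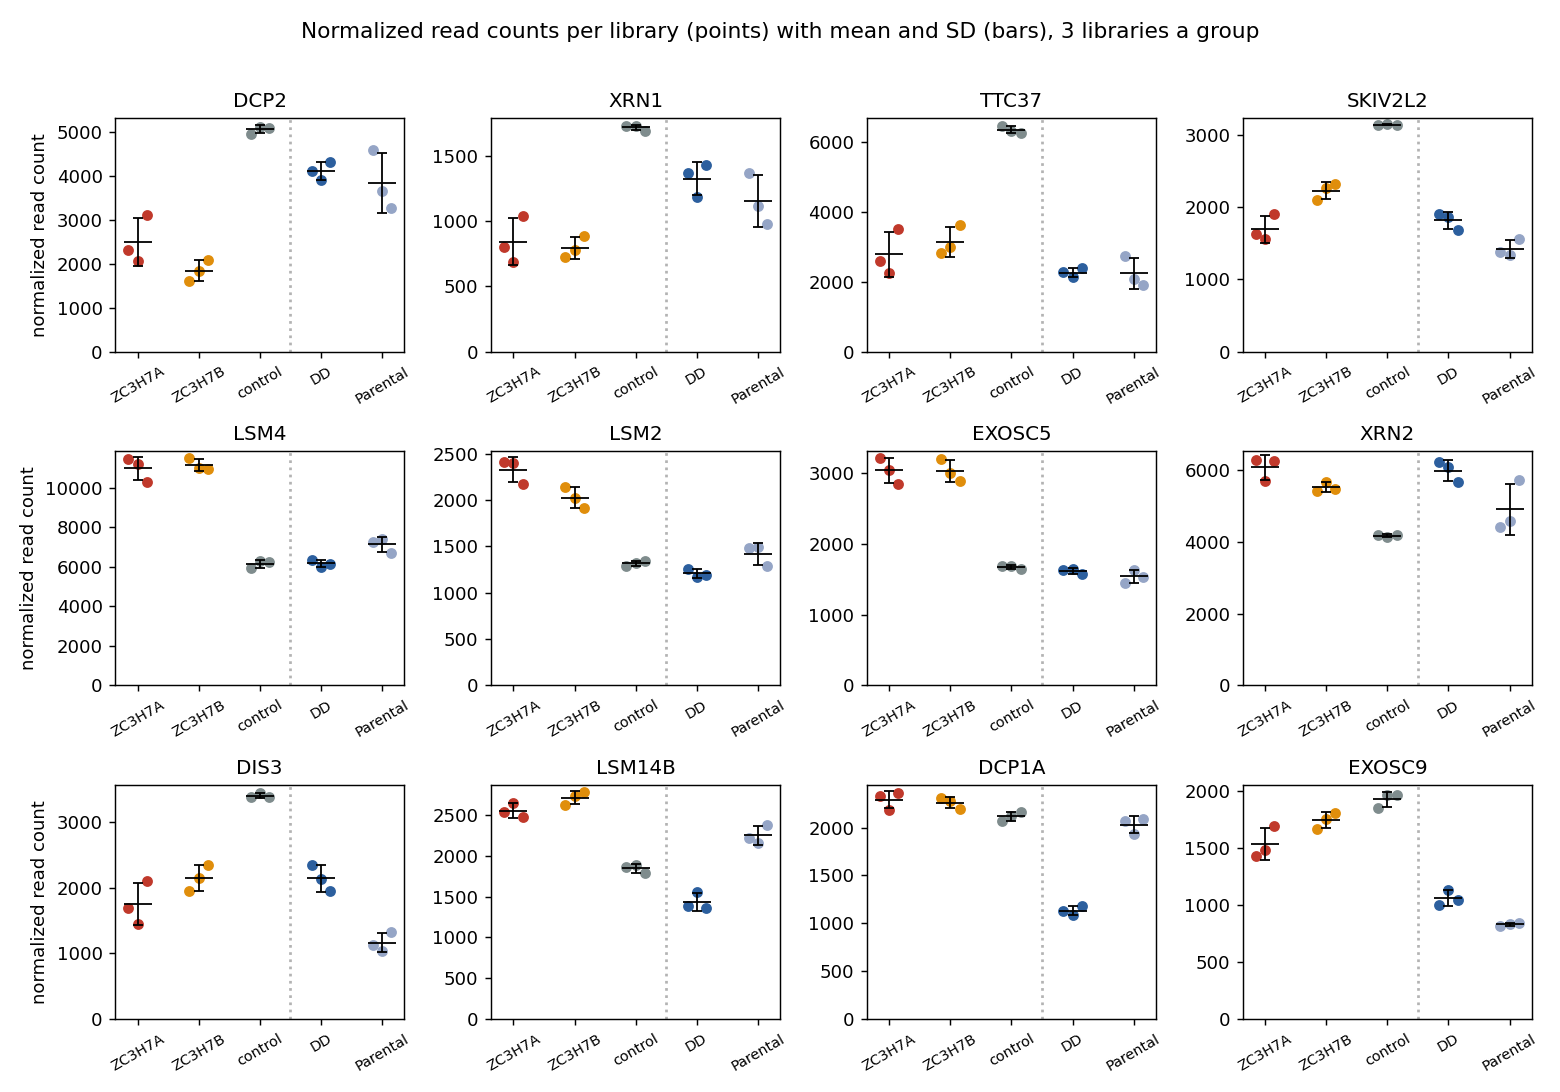
Normalized read counts (y axis, linear from 0) of 12 of the 37 genes in each library, by group (x axis), with the mean and SD over 3 libraries; the dotted line parts the overexpression and depletion experiments. DCP2, XRN1, TTC37, SKIV2L2 and DIS3 lie below the control in both overexpressions, LSM4, LSM2, EXOSC5 and XRN2 above it, and DCP1A and LSM14B lie below Parental in DD.

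Direction in the overexpressions was ordered by codon content. Of the 13 genes with at least 60% of codons ending in A or T, 1 rose (XRN2) and 9 fell with ZC3H7A, with a median log2 fold change of -0.63. Of the 12 genes with 40 to under 60%, 9 rose and 2 fell, with a median of 0.16. Of the 12 genes under 40%, 11 rose and none fell, with a median of 0.51, and EXOSC6, with the fewest such codons, was the one not called. With ZC3H7B the counts were 1 rising (XRN2) and 8 falling, 8 rising and 2 falling, and 11 rising and 1 falling (EXOSC6). The class medians were -0.47, 0.16 and 0.46. EXOSC6 has few such codons, but its whole transcript is 54.3% A+T. With the trend with transcript A+T content removed, it was not called with ZC3H7A (0.017, limma adjusted p = 0.793). It then still fell with ZC3H7B (-0.18, limma adjusted p = 0.00918).

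All tested genes with a coding sequence showed the same order. Their medians in these classes were -0.64, -0.13 and 0.30 with ZC3H7A and -0.52, -0.09 and 0.20 with ZC3H7B. With ZC3H7A, 4.62% of them rose and 83.6% fell in the highest class, 29.5% and 47.6% in the middle class, and 60.1% and 20.2% in the lowest. With ZC3H7B the shares were 5.50% and 76.7%, 30.6% and 43.9%, and 53.2% and 19.2%. In the middle class more of the 37 genes rose than fell, while over all genes more fell than rose. Across the 37 genes Pearson's r between codon share and log2 fold change was -0.68 with ZC3H7A (Spearman's rho -0.76), and across all 13586 genes it was -0.45 (rho -0.52). With ZC3H7B r was -0.64 (rho -0.73) across the 37 genes and -0.41 (rho -0.46) across all. In DD r was 0.07 (rho 0.09) across the 37 genes and 0.02 (rho 0.04) across all 13219. These are correlations across genes of the same libraries, which are not independent replicates, and codon content is tied to the base composition of the transcript.

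The libraries of a group differed along the same property. In ZC3H7A library 3 the 37 genes deviated from the mean of the other ZC3H7A libraries by 0.0975 log2 units for each 10 percentage points of codons ending in A or T, against -0.0468 and -0.0507 in libraries 1 and 2. All genes showed 0.0870 in library 3. The ZC3H7B libraries had slopes of -0.0461, 0.00441 and 0.0417 over the 37 genes, and the control libraries stayed within -0.00498 to 0.00895. DCP2, XRN1, TTC37, DIS3, SKIV2L2, EXOSC8, EXOSC9, PNRC2 and LSM8 were each highest, and so nearest the control, in ZC3H7A library 3. In Parental the slopes were 0.0452, -0.0148 and -0.0304. The part of this spread between libraries in the differences between groups was not tested.

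Values relative to transcripts of like base composition were smaller for many genes. Here the trend of each library with the A+T share of the transcript was removed before the same limma test. With ZC3H7A, the fall of DCP2 then measured -0.26 on the log2 scale, of XRN1 -0.26, of TTC37 -0.54, of DIS3 -0.36, of SKIV2L2 -0.32 and of PNRC2 -0.47, and all 6 still passed. The rise of EXOSC4 measured 0.66, of EXOSC5 0.51, of LSM4 0.52 and of LSM14B 0.22. EXOSC9 no longer passed (-0.07, limma adjusted p = 0.115), LSM8 turned to a rise (0.25), SKIV2L lost its call and its sign (-0.021, limma adjusted p = 0.568), and DCP1B (0.09) and EXOSC2 (0.02) did not pass.

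With ZC3H7B, DCP2 kept a fall of -0.72, XRN1 of -0.37, TTC37 of -0.40 and DIS3 of -0.11. SKIV2L2 lost its call and its sign (0.022, limma adjusted p = 0.519), and PNRC2 (0.26) and LSM8 (0.27) turned to rises. LSM4 (0.63), EXOSC5 (0.62), LSM7 (0.56) and LSM2 (0.43) still rose, and DCPS (0.11) and EXOSC7 (0.07) did not pass. XRN2, already above genes of its codon class, had 0.83 with ZC3H7A and 0.63 with ZC3H7B, and LSM5, not called before, had 0.78 and 0.84. DCP2 and XRN1 lay below genes of like composition in both overexpressions, and XRN2 lay above them.

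**Figure D3:**
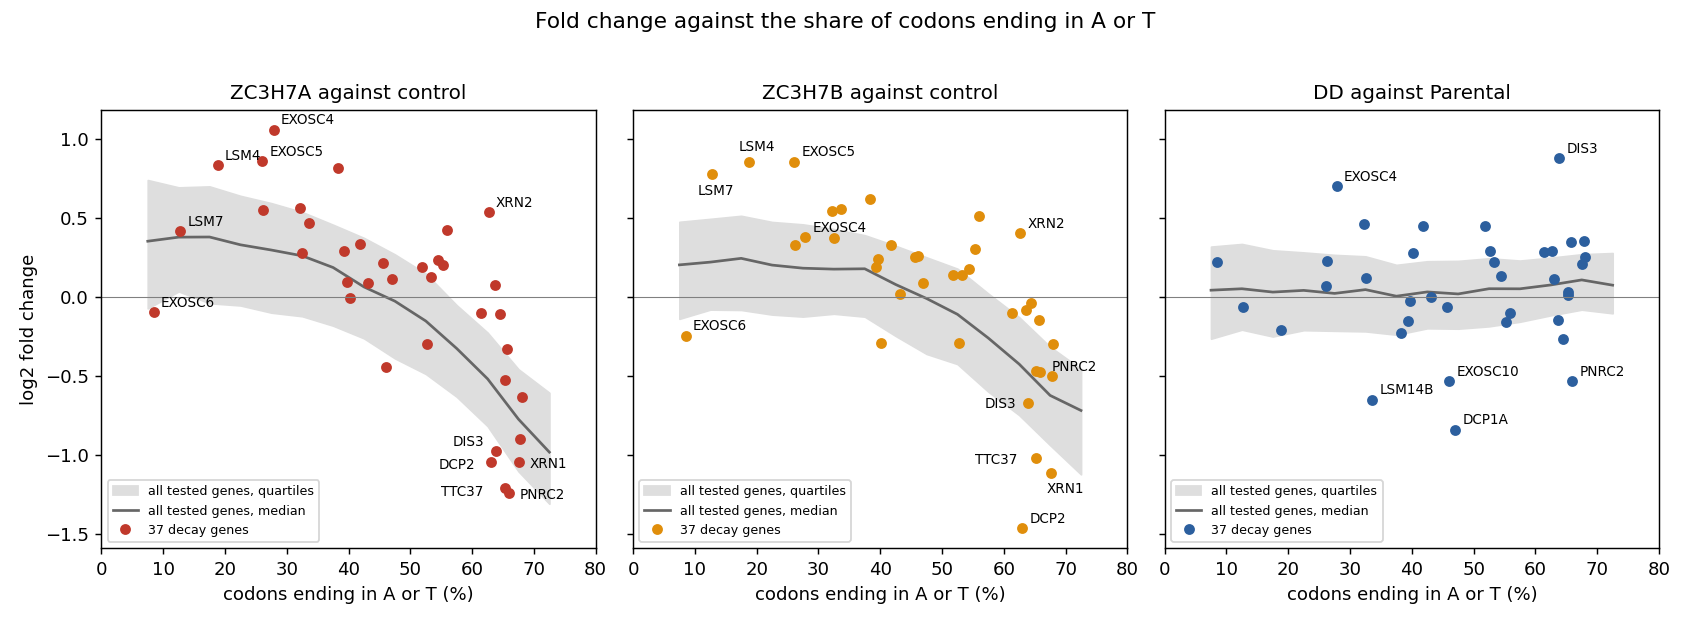
Log2 fold change (y axis) against the percentage of codons with A or T in last place (x axis) for the 37 genes (points) and all tested genes (line: median; band: quartiles, in 5-point bins) in ZC3H7A against control, ZC3H7B against control and DD against Parental. The 37 genes follow the falling line in both overexpressions, with r of -0.68 and -0.64, and show no slope in DD, with r of 0.07; XRN2 and EXOSC6 lie off the line.

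ZC3H7A was also compared directly with ZC3H7B. Relative to ZC3H7B, 7 of the 37 genes were higher with ZC3H7A, 8 were lower and 22 did not pass, against 44.3% of all tested genes called either way (23.9% higher, 20.4% lower). Libraries did not overlap for 14 genes (49.2% of all genes), and 3 differed by at least 0.5 on the log2 scale (14.8% of all genes). The largest differences were PNRC2 (log2 fold change -0.77 with SE 0.0818, limma adjusted p = 1.29e-05), EXOSC10 (log2 fold change -0.70 with SE 0.0374, limma adjusted p = 5.57e-08) and EXOSC4 (log2 fold change 0.68 with SE 0.0615, limma adjusted p = 3.3e-06), whose values are given above. DCP2 was higher with ZC3H7A (0.42, limma adjusted p = 0.015), but its libraries overlapped: ZC3H7A library 2 lay under ZC3H7B library 3.

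SKIV2L2 (-0.40), LSM7 (-0.36), EXOSC8 (-0.34), DIS3 (-0.30), EXOSC9 (-0.19) and EXOSC1 (-0.14) were lower with ZC3H7A on the log2 scale, with overlapping libraries for DIS3 and EXOSC9. PNRC1 (0.29), DCPS (0.22), LSM2 (0.20), LSM14A (0.16) and XRN2 (0.14) were higher. XRN1 (0.07), TTC37 (-0.19), LSM4 (-0.023) and EXOSC5 (0.0023) did not pass. The counts moved with single libraries: 11 genes were higher without ZC3H7A library 3, 4 were higher without ZC3H7B library 3, and 5 were lower without ZC3H7B library 2. With the A+T trend removed, 11 were higher and 13 lower. Of the 15 genes called, 8 missed the threshold without 1 library or another: DCP2, DCPS, LSM14A, LSM2, XRN2, EXOSC1, EXOSC9 and DIS3.

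The genes that differed most between the overexpressions lay among neighbours that differed the same way. For each gene the median log2 fold change of up to 40 nearest tested genes on its chromosome was taken. Around EXOSC4, on chromosome 8, it was 0.69 for ZC3H7A against ZC3H7B, with 37 of 40 neighbours higher. Around PNRC2, on chromosome 1, it was -0.55, with 32 of 40 lower, and around EXOSC10, also on chromosome 1, it was -0.45, with 33 of 40 lower. Around LSM7, on chromosome 19, it was -0.49, with 37 lower. SKIV2L2 (0.10) and DCP2 (-0.08) did not share the value of their neighbours.

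Against the control, the neighbours of EXOSC4 had a median of 0.88 with ZC3H7A and 0.19 with ZC3H7B, and those of PNRC2 -0.53 and -0.028. The neighbours of XRN2 had 0.59 and 0.56, those of LSM14B 0.51 and 0.42, those of DCP2 -0.58 and -0.50, and those of XRN1 -0.22 and -0.39. On chromosome 19, the neighbours of LSM4 had 0.73 and 0.46, those of EXOSC5 0.71 and 0.50, and those of LSM7 0.29 and 0.68. The genes around these 3 thus rose as well, while the neighbours of LSM2, on chromosome 6, had 0.15 and 0.20. Across the 37 genes, r between a gene and its neighbours was 0.81 with ZC3H7A, 0.82 with ZC3H7B, 0.75 between the overexpressions and 0.44 in DD. Spearman's rho was 0.77, 0.83, 0.38 and 0.18 for the same comparisons. Neighbours share libraries and regional base composition with the gene, and the part of either, or of chromosome copy number, in these values was not tested.

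**Figure D4:**
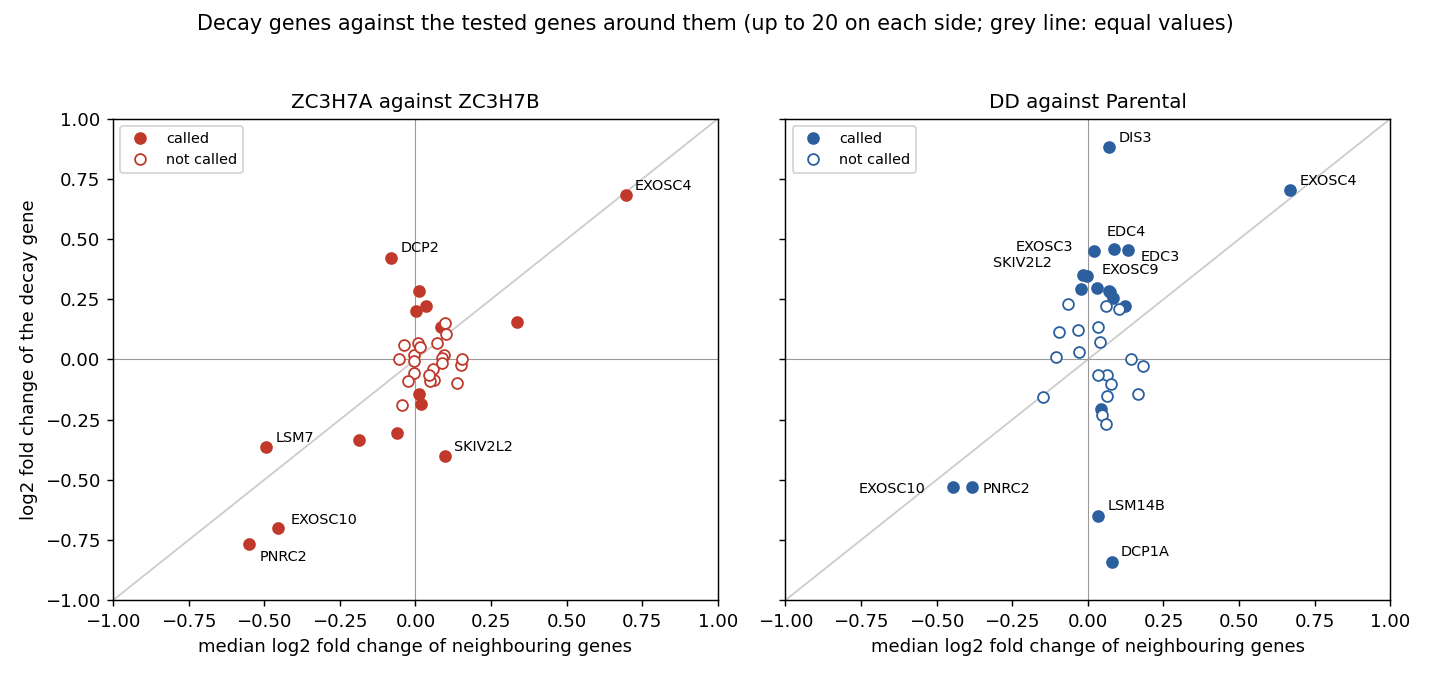
Log2 fold change of each of the 37 genes (y axis) against the median of up to 40 neighbouring tested genes (x axis) for ZC3H7A against ZC3H7B and for DD against Parental; filled points passed the test. EXOSC4, EXOSC10 and PNRC2 lie near the line of equal values in both panels, and DIS3, DCP1A and LSM14B lie far from it in DD, with neighbour medians of 0.07, 0.08 and 0.035.

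In DD, DIS3 and EXOSC4 rose most and DCP1A and LSM14B fell most, and DCP2, XRN1 and TTC37 did not pass the test. Relative to Parental, 13 of the 37 genes rose, 5 fell and 19 did not pass (limma, adjusted over 18494 genes), against 29.5% of all tested genes called (14.7% higher, 14.8% lower). The groups did not overlap for 23 genes, against 43% of all genes, and 6 were called at an absolute log2 fold change of at least 0.5, against 14.1% of all genes. The median log2 fold change of the 37 genes was 0.11, and that of all genes was 0.01. Leaving out DD library 1 left 6 rising genes, and leaving out Parental library 3 gave 8 falling ones. Of the 18 genes called, 8 missed the threshold without 1 library or another: PNRC1, LSM3, LSM4, XRN2, EXOSC6, EXOSC8, DIS3L and SKIV2L2.

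DIS3 changed most. It had 2341, 2132 and 1942 normalized reads in DD and 1123, 1040.3 and 1325 in Parental, with the lowest DD library above the highest Parental library (log2 fold change 0.88 with SE 0.1, limma adjusted p = 6.15e-05). DIS3L rose too (0.30, limma adjusted p = 0.0108), and the third catalytic subunit, EXOSC10, had 2770.4, 2914 and 2778 in DD and 3701, 3863 and 4736 in Parental and fell (log2 fold change -0.53 with SE 0.0887, limma adjusted p = 0.000929). Parental library 3 was the highest for EXOSC10, and the log2 fold change ranged from -0.60 to -0.42 when single libraries were left out. Of the ring subunits, EXOSC4 had 998, 1097 and 975 in DD and 599, 671 and 614 in Parental and rose (log2 fold change 0.70 with SE 0.0883, limma adjusted p = 0.000129). EXOSC9, with 996, 1132 and 1043 in DD and 815, 831 and 841 in Parental, rose as well (log2 fold change 0.35 with SE 0.0815, limma adjusted p = 0.00724), and so did EXOSC8 (0.26), EXOSC6 (0.22) and the cap subunit EXOSC3 (0.45).

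DCP1A, an activator of DCP2, had 1127, 1089.8 and 1182 in DD and 2074, 1930.3 and 2085 in Parental. All 3 DD libraries lay far below Parental (log2 fold change -0.84 with SE 0.0732, limma adjusted p = 8.47e-06), while its paralog DCP1B did not pass (-0.06). LSM14B had 1388, 1564 and 1363 in DD and 2220.3, 2159.6 and 2381 in Parental and fell (log2 fold change -0.65 with SE 0.0785, limma adjusted p = 9.89e-05), and its paralog LSM14A had -0.14 without passing. PNRC2 had 358, 381 and 438 in DD and 593, 629 and 486 in Parental and fell (log2 fold change -0.53 with SE 0.123, limma adjusted p = 0.00679), while its paralog PNRC1 rose (0.28). In each of these pairs the paralogs were not called in the same direction. Every DD library of LSM14A nevertheless lay below every Parental library, and with the A+T trend removed LSM14A was called lower (-0.18, limma adjusted p = 0.0335), as LSM14B was.

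EDC4 (0.46), EDC3 (0.45), LSM3 (0.29) and XRN2 (0.29) rose on the log2 scale, the last with overlapping libraries, and LSM4 fell (-0.21). SKIV2L2 had 1897, 1862 and 1685 in DD and 1372, 1334 and 1562 in Parental and rose (log2 fold change 0.35 with SE 0.084, limma adjusted p = 0.00799); without DD library 1 it missed the threshold (0.32, limma adjusted p = 0.0512). DCP2 had 4111, 3914 and 4312 in DD and 4598, 3656 and 3261 in Parental (log2 fold change 0.11 with SE 0.106, limma adjusted p = 0.463), XRN1 had 1363, 1179.8 and 1430.2 in DD and 1366, 1112 and 980.3 in Parental (log2 fold change 0.21 with SE 0.118, limma adjusted p = 0.208), and TTC37 had 2286, 2132 and 2397 in DD and 2742, 2093 and 1906 in Parental (log2 fold change 0.032 with SE 0.115, limma adjusted p = 0.865). The libraries of DD and Parental overlapped in all 3 genes, and a difference within that spread was not detectable.

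Around DIS3, DCP1A, LSM14B and SKIV2L2 the neighbouring genes had medians of 0.07, 0.08, 0.035 and -0.015 in DD. Around EXOSC4 the median was 0.67 (29 of 40 higher), around PNRC2 -0.38 (25 of 40 lower) and around EXOSC10 -0.45 (29 of 40 lower). EXOSC4, PNRC2 and EXOSC10 had the direction and about the size of their neighbours' median in DD, as between the overexpressions, and DIS3, DCP1A and LSM14B did not. With the A+T trend removed DIS3 had 0.84, DCP1A -0.85, EXOSC4 0.65 and LSM14B -0.65.

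The DD calls were set beside those of the overexpressions. Of the 18 genes called in DD, 6 went against the direction of both overexpressions: DIS3, DIS3L, SKIV2L2 and EXOSC8 rose in DD and fell in both, and LSM14B and LSM4 fell in DD and rose in both. Among these 6, the DD calls of DIS3 and LSM14B held without any single library. Another 6 had the same direction in all: EDC3, EDC4, XRN2, EXOSC3 and EXOSC4 rose, and PNRC2 fell. A further 5 went against 1 overexpression. EXOSC9 rose in DD and fell with ZC3H7A, and PNRC1 and EXOSC6 rose in DD and fell with ZC3H7B. DCP1A fell in DD and rose with ZC3H7A, and EXOSC10 fell in DD and rose with ZC3H7B. The share of all genes called against 1 overexpression was not computed, so this count has no background beside it. Over all 16165 genes tested in both experiments, 9.06% were called against both overexpressions and 10.3% with both. These shares are of all tested genes, whether called in DD or not. They stand beside 6 of 37 genes for each pattern, not 6 of 18. The experiments used different library protocols, and the difference between their fold changes was not tested.

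Other genes of the same routes were taken from a list of 25 names, of which 24 were tested. With ZC3H7A 5 rose and 14 fell, and with ZC3H7B 6 rose and 13 fell. In each, 79.2% of the 24 genes were called, close to the 75.9% of all tested genes with ZC3H7A and the 69.6% with ZC3H7B. By direction, 34.7% of all tested genes were higher and 41.2% lower with ZC3H7A, and 32% and 37.6% with ZC3H7B. LSM10, an LSM protein of the U7 particle that processes histone mRNA, had 1636 ± 105 with ZC3H7A, 1249 ± 36.4 with ZC3H7B and 869 ± 13.1 in the control (SD, n = 3 each), and rose in both (0.91 and 0.52 on the log2 scale). NT5C3B, which dephosphorylates the cap nucleotide that DCPS releases, rose in both (0.80 and 0.52), and so did NUDT3, another decapping enzyme (0.59 and 0.40). NUDT16, also a decapping enzyme, fell (-0.61 and -0.45). These genes were named for their low adjusted p, and most of them rose, although more of the 24 genes fell. The largest change among the 24 genes was the fall of ZFC3H1 in both overexpressions (-1.28 and -0.91).

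PAPD7, a non-canonical poly(A) polymerase, fell with ZC3H7A (-0.56) and rose with ZC3H7B (0.25). Relative to ZC3H7B, 4 of the 24 genes were higher with ZC3H7A and 9 were lower (54.2% called, and 44.3% of all genes), with PAPD7 (log2 fold change -0.82 with SE 0.0395, limma adjusted p = 2.45e-08) and the exonuclease DIS3L2 (-0.42) among the lower ones. In DD 4 rose and 5 fell (37.5% called, and 29.5% of all genes). PAPD7 had 1447 ± 45.5 in DD and 2683 ± 87.6 in Parental and fell (log2 fold change -0.89 with SE 0.068, limma adjusted p = 3.31e-06), NUDT3 (-0.56) and CDKN2AIP, which binds XRN2 (-0.57), fell, and DDX6, the helicase that joins PATL1, EDC3 and LSM14 proteins, rose (0.33). DDX6 did not pass in either overexpression (0.07 and 0.0039).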

How the data were processed

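RNA-seq libraries of HEK293-derived cells were compared within 2 experiments, 9 overexpression and 6 depletion libraries. The deposited table of 55773 genes was treated as a signal of normalized reads. The submitters' processing notes name STAR 2.7.10b, HTSeq, DESeq2 and hg19; settings are not given in the sources used here. Every deposited signal value (100% in each library, tolerance 0.01 reads) was a whole multiple of what 1 read is worth there, so the authors had scaled counts by library, and the counts could be recovered.

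The main test was limma 3.58.1 in R 4.3.3 on log2(value + 1), with a mean-variance trend, for genes that reached 10 in 3 or more libraries of a fit. It was two-sided, with Benjamini-Hochberg adjustment over all tested genes, and genes under 0.05 were called. Fold changes on this scale understate those of low genes. Each experiment had its own fit, and its groups shared 1 estimate of the spread for each gene. A fit of only ZC3H7A and control called 18 of the 37 genes higher and 11 lower, against 21 and 11. Alternatives were other pseudocounts (0.5, 10) and filters, TMM and upper-quartile scaling, edgeR 4.0.16 and DESeq2 1.42.0 on recovered counts, 1 fit over 15 libraries, pairwise fits, a replicate block, removal of the A+T trend and leaving out each library. A chi-square test of counts found a difference between all replicate pairs.

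GENCODE 29 on GRCh38 gave coding sequences, exon lengths and gene order; hg19 annotation was not used here. Current symbols matched 34227 row names and older symbols 1233, and 20313 had no match. Genes given with every library were those called without overlap at an absolute log2 fold change of at least 0.5 (up to 8 a comparison) or called in opposite directions in DD and an overexpression with at least 0.3 in both. Further genes show a complex or pair in full. Other genes of the routes were up to 4 per comparison with the lowest adjusted p, and ZFC3H1 was added for the size of its change. The genes, lists and tests were chosen with earlier results of these data known. Tests were tried on simulated data.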

Additional observations from a re-analysis of the deposited data

How the results depend on the processing

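Across the 96 calls of the 37 genes in the 4 comparisons, 1728 values were computed under an alternative: 1630 kept direction and call, 93 kept direction and lost the call, and 5 changed direction. All 5 came with the A+T trend removed: LSM8 (0.25, limma adjusted p = 1.78e-05) and SKIV2L (-0.021, limma adjusted p = 0.568) with ZC3H7A, and LSM8 (0.27, limma adjusted p = 8.26e-06), PNRC2 (0.26, limma adjusted p = 0.0022) and SKIV2L2 (0.022, limma adjusted p = 0.519) with ZC3H7B. Without 1 library or another, 4 of 32 calls were lost with ZC3H7A, 1 of 31 with ZC3H7B, 8 of 15 between the overexpressions and 8 of 18 in DD. With the A+T trend removed, 11 genes were higher and 13 lower with ZC3H7A than with ZC3H7B, against 7 and 8. A fit over 15 libraries called 8 genes lower in DD, against 5. The cause was not tested in these cases. Leaving out single libraries gave 17 to 20 rising and 11 to 12 falling genes with ZC3H7A, 19 to 20 and 11 with ZC3H7B, 4 to 11 higher and 5 to 11 lower with ZC3H7A than with ZC3H7B, and 6 to 15 rising and 4 to 8 falling in DD. With the replicate number as a block, 19 rose and 12 fell with ZC3H7A, 20 and 13 with ZC3H7B, 8 and 8 differed between the overexpressions, and 10 rose and 4 fell in DD. Same-numbered libraries did not all deviate together (r from -0.27 to 0.72), so the numbers were not taken to pair samples, and not every library correlated best with its own number. The depletion libraries were shallower, and their 3 samples a group limit how small a difference could be called.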
